A study of Mus musculus with 2 samples.

Results

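Interferon-stimulated genes were examined in preselected double-positive (DP) thymocytes that lack the transcription factor Bcl11b. The members are 30 genes chosen by name from the canonical targets of interferon signalling. Probes of 29 of them were found on the arrays, 44 probes in all, and 24 genes were bright enough to be tested among 14920 genes. No probe was matched to Xaf1, which was not analysed here. On each of 2 mouse 2-colour arrays, a sample of Bcl11bF/FCD4Cre/Tcra-/- DP thymocytes labelled with Cy5 was set against a sample of TCRa-/- DP thymocytes labelled with Cy3. In the first genotype Cre driven by Cd4 sequences acts on a floxed Bcl11b gene, and both genotypes lack Tcra, so that their thymocytes carry no alpha beta receptor and stop before selection. Neither Cre nor a floxed allele appears in the label of the controls, and no array has the dyes reversed, so loss of Bcl11b, the presence of Cre and the dye cannot be told apart. The mice were untreated, and the labels give neither their age nor the number of mice per sample. The arrays are labelled biological replicates 1 and 2, so each genotype had 2 samples.

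Type I interferons act through the receptor chains Ifnar1 and Ifnar2 and interferon gamma through Ifngr1 and Ifngr2. The kinases Jak1, Jak2 and Tyk2 then phosphorylate STAT proteins. A complex that holds Stat2 and Irf9 binds the interferon-stimulated response element, a repeat of GAAA, and STAT dimers bind the gamma-activated sequence, TTC and GAA around a short spacer. The genes so induced encode antiviral proteins, GTPases that attack the vacuoles of intracellular microbes, and proteins that sustain or restrain the response. Mature thymocytes receive a basal interferon signal in the medulla, whereas DP thymocytes lie in the cortex.

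Ratios below are log2 ratios of Bcl11bF/FCD4Cre/Tcra-/- over TCRa-/-, normalised within each array, with the mean ± SE of limma over n = 2 arrays where a mean is given. Processed signals are Agilent's background-subtracted, dye-normalised intensities of one probe, and signals of different probes were not compared. For marker lists they were summed over genes within each sample, so the brightest probes weigh most in a sum. Feature Extraction marked 56.5% and 50.5% of spots as well above background for deficient samples (replicates 1 and 2), against 51.7% and 50.6% for control samples. The arrays number 2, which limits the precision of every value. Bcl11b, the targeted gene, was lower on both arrays, at -1.40 and -0.28 by one probe and at -1.37 and -2.16 by its other probe. All 13 DP thymocyte markers, Cd4, Cd8a and Rag1 among them, were well above background in both genotypes on both arrays. Of these, 4 read higher on both arrays and 9 read lower, against 36.4% and 38.5% of all genes. Their median was -0.24, and 0.16 with median centring. Arpp21, a DP stage gene, was the lowest at -0.65 and -0.71 (limma adjusted p = 0.0746; 0.0234 in separate-channel limma). Its mean was -0.14 with median centring. Tcf7 was the highest at 0.74 and 0.64 (limma adjusted p = 0.0746; 0.0230 in separate-channel limma). The sum of the DP markers was 265800 and 237400 in deficient samples, against 316100 and 279900 in control samples. Bright probes account for much of that gap. Rag1 had 46863 and 39640 in deficient samples, against 79061 and 65262 in control samples, yet its mean was 0.46 with median centring. Cd8a had 39955 and 34213 in deficient samples, against 52473 and 41880 in control samples, yet its normalised ratios were 0.0025 and 0.016. Red cell genes differed between the arrays, with Hbb-bt at -0.35 on replicate 1 and 2.86 on replicate 2. The summed processed signal of 4 erythroid markers was 71800 and 108100 in deficient samples, against 127600 and 20190 in control samples. In such bulk samples, fewer cells of a type and less RNA per cell cannot be told apart.

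As a group, the interferon-stimulated genes had a median close to that of all genes tested, while a smaller share of them read lower on both arrays. Their median log2 ratio was 0.07, and was 0.10 on replicate 1 and 0.06 on replicate 2, against -0.0035 for all genes. Both arrays read higher for 11 of the 24 tested members (45.8%) and lower for 4 (16.7%), while 9 (37.5%) pointed in opposite directions. Over all genes, 36.4% were higher on both arrays, 38.5% lower and 25.1% opposite. These shares were compared by no test. With median centring, which leaves out the loess step, 18 members, or 75%, read higher on both arrays and 1, or 4.17%, lower, against 55% and 23.5% of all genes. No member passed limma's test at an adjusted p of 0.05, and neither did any other gene, so that percent was 0 over all genes. At an unadjusted p under 0.05 there were 6 members, of which 5 were higher (Irf1, Irgm1, Gbp3, Bst2 and Parp14) and 1 lower (Igtp). That is 25% of the members, against 29.2% of all genes, so the members passed no more often than genes in general. By direction, 20.8% of members passed as higher, against 15.1% of all genes, and 4.17% as lower, against 14.1%. Only Irf1 was at least 1.5-fold higher on both arrays and no member was as far lower, against 2.47% and 1.21% of all genes. Taking the mean of its kept probes in place of the brightest left Irf1 short of 1.5-fold on at least 1 array. Limma on the separate channels called 3 members, Irf1, Irgm1 and Gbp3, all higher, where it called 4.76% of all genes as higher and 3.83% as lower. Median centring called Irf1 and Irgm1, where it called 5.87% of all genes as higher and 0.704% as lower. The processed signals called no member, where limma called 0.496% of all genes as higher and 0.389% as lower. These settings used the same 2 arrays and are no independent evidence.

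**Figure D1:**
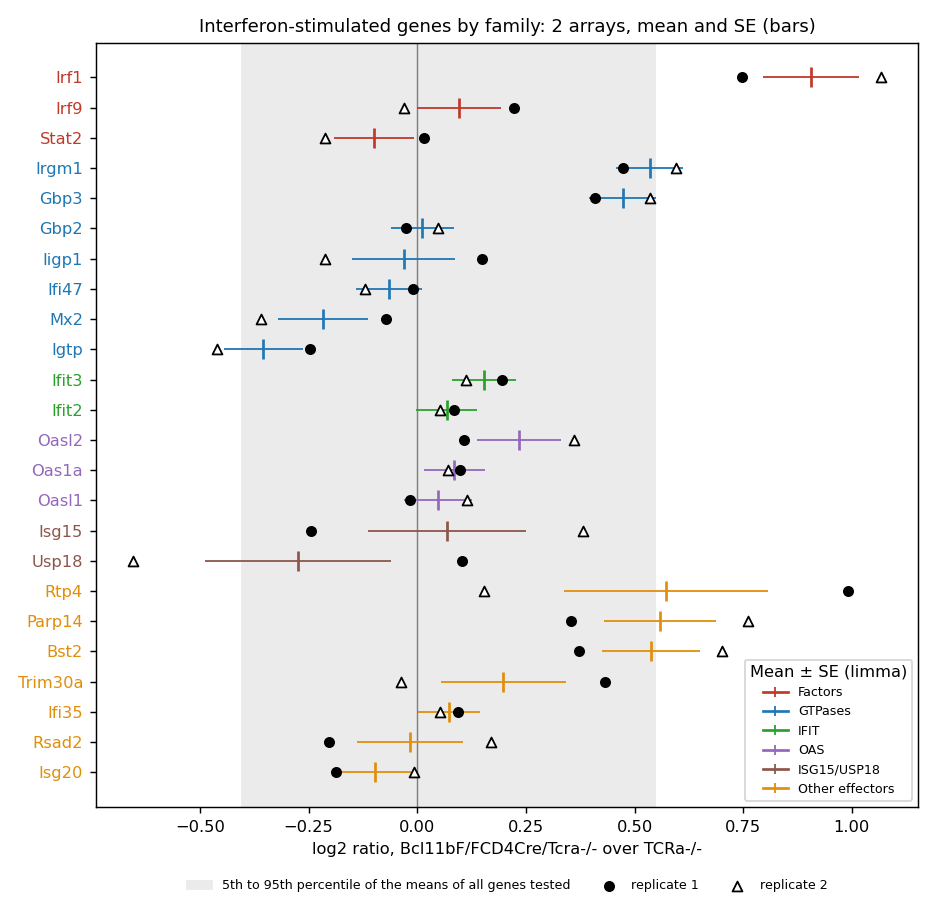
The plot of ratios by family gives the log2 ratio of Bcl11bF/FCD4Cre/Tcra-/- over TCRa-/- on the horizontal axis for the 24 tested members, with replicate 1 as filled circles, replicate 2 as open triangles and the mean ± SE of limma as coloured bars. The grey band runs between the 5th and 95th percentiles of the means of all genes, -0.40 and 0.55, and holds all but Irf1, Rtp4 and Parp14.

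Irf1, a transcription factor that interferon gamma induces and that activates further interferon targets, had the highest mean of all members. Its brighter probe, on chromosome 11 at 53620636 to 53620695 of the mm8 build, had processed signals of 9259 and 10978 in deficient samples, against 5294 and 4994 in control samples. Both deficient samples lay above both control samples. The ratios were 0.75 and 1.07, or 1.68-fold and 2.10-fold, averaging 0.91 ± 0.11 (limma adjusted p = 0.0779; 0.0310 in separate-channel limma). A second Irf1 probe, whose match at 53617367 to 53617512 spans 146 bases of the genome, gave 0.38 and 0.46. It was thus higher on both arrays as well, by less.

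The other factors are partners in the complex that type I interferon activates, and neither read the same way on both arrays. Irf9, its DNA-binding subunit, had processed signals of 749 and 774 in deficient samples, against 628 and 814 in control samples, and ratios of 0.22 and -0.03. Stat2, its transactivating subunit, had 1971 and 1880 in deficient samples, against 1952 and 2282 in control samples, and ratios of 0.01 and -0.21. For both genes the genotypes overlapped. The second Irf9 probe was well above background in no sample.

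The 250 bases before the annotated start of Irf1 (RefSeq, GRCm38.p6, chr11:53769764-53770013, plus strand) are shown because Irf1 had the highest mean ratio and its upstream sequence carries a gamma-activated core. Capitals mark a match of TTCNNNGAA, a pattern that reads the same on both strands and starts 90 bases before the start.
Irf1: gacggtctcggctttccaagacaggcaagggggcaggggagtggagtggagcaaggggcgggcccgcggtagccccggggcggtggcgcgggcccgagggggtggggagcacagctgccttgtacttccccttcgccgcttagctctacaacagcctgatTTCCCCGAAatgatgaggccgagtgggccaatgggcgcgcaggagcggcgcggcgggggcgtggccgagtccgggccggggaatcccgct
The core of the interferon-stimulated response element, searched on both strands as GAAA and GAAA with any 2 bases between, does not occur in this window. A second annotated start of Irf1 had neither motif. A match of these letters is a description of the sequence and not a measured binding site.

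The GTPases did not read in one direction. Of 8 genes, 7 were tested, with means from -0.35 to 0.54 and a median of -0.03 that was 0.17 with median centring. On both arrays 2 of the 7 read higher and 3 read lower, against 36.4% and 38.5% of all genes. Irgm1, an immunity-related GTPase that takes part in autophagy and in the control of its relatives, had processed signals of 1798 and 1695 in deficient samples, against 1246 and 1114 in control samples. The groups did not overlap, and the ratios of 0.47 and 0.60 averaged 0.54 ± 0.08 (limma adjusted p = 0.0846; 0.0316 in separate-channel limma). A second Irgm1 probe read 0.35 and 0.49, and its remaining probe was well above background in no sample. Gbp3, a guanylate-binding protein, had 455 and 396 in deficient samples, against 319 and 247 in control samples. Its ratios were 0.41 and 0.54, averaging 0.47 ± 0.08 (limma adjusted p = 0.0877; 0.0425 in separate-channel limma), again without overlap between genotypes.

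Igtp, the gene of the immunity-related GTPase Irgm3, had the lowest mean of all members. Its processed signals were 14469 and 12219 in deficient samples, against 18398 and 17370 in control samples, with no overlap. The ratios were -0.25 and -0.46, averaging -0.35 ± 0.09 (limma adjusted p = 0.123), but with median centring the mean was 0.17. Median centring does not correct ratios by intensity, and under it all genes together shifted up, their median by 0.10 (replicate 1) and 0.16 (replicate 2). Irgm1 and Igtp, which lie on the same chromosome at 48708990 and 58023620 (mm8), thus read to opposite sides of 0 in the loess values.

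Gbp2 and Gbp3, neighbours in the genome, also read differently, and that difference was not tested. Gbp2, on chromosome 3 at 142575141 (mm8), had processed signals of 1858 and 1717 in deficient samples, against 1858 and 1710 in control samples, while Gbp3 lies at 142510494 on that chromosome. The Gbp2 ratios were -0.03 and 0.05, with a mean of 0.01 ± 0.07, so the genotypes overlapped. Ifi47, another immunity-related GTPase, read -0.01 and -0.12, and Iigp1, which coats the vacuoles of parasites, read 0.15 and -0.21. Guanylate-binding and immunity-related GTPases form families of similar sequence, and whether each probe reads one gene was not tested.

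The Mx genes, dynamin-like GTPases that block virus replication, are annotated as transcribed pseudogenes in the RefSeq table of the C57BL/6J genome. Mx2 had processed signals of 68.9 and 51.5 in deficient samples, the second of them not well above background, against 83.3 and 114 in control samples. Its ratios were -0.07 and -0.36, and -0.27 and -1.15 from the processed signals. Mx1 passed the background flag in 1 deficient sample, by 1 of its 2 probes, and in no control sample.

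The upstream sequences of 4 of these GTPase genes are shown because the genes differ in ratio while each holds a response element core. Capitals mark the response element core on either strand, or TTCNNNGAA, within the 250 bases before the start (RefSeq, GRCm38.p6), each written 5′ to 3′ on the gene's strand. They lie at chr11:48871421-48871670 (minus strand) for Irgm1, chr3:142559794-142560043 (plus strand) for the first annotated start of Gbp3, chr11:58199306-58199555 (plus strand) for Igtp and chr3:142620413-142620662 (plus strand) for Gbp2.
Irgm1: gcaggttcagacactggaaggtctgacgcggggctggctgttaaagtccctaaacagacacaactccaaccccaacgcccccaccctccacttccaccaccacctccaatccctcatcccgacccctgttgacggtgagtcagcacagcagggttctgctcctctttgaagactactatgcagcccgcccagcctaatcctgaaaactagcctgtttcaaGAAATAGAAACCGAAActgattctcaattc
Gbp3: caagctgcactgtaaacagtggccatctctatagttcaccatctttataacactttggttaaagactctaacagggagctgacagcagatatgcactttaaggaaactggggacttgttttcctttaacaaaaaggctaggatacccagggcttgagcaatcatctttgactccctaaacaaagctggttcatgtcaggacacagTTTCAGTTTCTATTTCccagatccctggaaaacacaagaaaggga
Igtp: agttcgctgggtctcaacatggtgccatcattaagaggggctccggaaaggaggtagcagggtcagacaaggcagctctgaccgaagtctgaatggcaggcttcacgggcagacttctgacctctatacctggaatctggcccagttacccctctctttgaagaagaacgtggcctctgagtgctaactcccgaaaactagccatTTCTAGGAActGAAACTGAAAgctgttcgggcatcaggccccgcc
Gbp2: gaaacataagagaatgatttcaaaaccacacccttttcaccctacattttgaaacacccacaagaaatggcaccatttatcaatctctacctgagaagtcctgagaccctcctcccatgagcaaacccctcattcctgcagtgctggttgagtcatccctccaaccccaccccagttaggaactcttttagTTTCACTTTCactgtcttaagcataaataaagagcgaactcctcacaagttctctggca
Irgm1 and Gbp3 each hold 2 overlapping matches of the response element, nearest to the start at 24 and 39 bases before it, while a second annotated start of Gbp3 has none. Isg15, with 3 matches, and Oas1a, with 2, had means of 0.07 and 0.08. The Isg15 ratios were -0.25 and 0.38. The array files place the Isg15 probe on chromosome 17, whereas the gene and this upstream sequence lie on chromosome 4. Igtp holds 1 match 34 bases before its start with a TTCNNNGAA match just upstream, and Gbp2 holds 1 match 59 bases before its start.

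Across the members in the promoter table, the ratios with and without the motif covered overlapping ranges. The table held 23 of the 30 listed members, and the response element core on either strand lay upstream of 13 of them, or 56.5%, against 3.46% of 27025 genes. TTCNNNGAA lay upstream of 6, or 26.1%, against 8.13% of genes. Of tested members, 11 with the response element core had means from -0.35 to 0.54 with a median of 0.08, and 8 without it had means from -0.10 to 0.91 with a median of 0.07. These are counts of letters, with no test, and matches of the motifs may overlap.

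IFIT proteins bind viral RNA and slow its translation. Ifit2 had processed signals of 365 and 366 in deficient samples, against 348 and 349 in control samples, and ratios of 0.08 and 0.05. Both deficient samples lay above both control samples by a small margin. A second Ifit2 probe was well above background in both deficient samples and in neither control sample. Its ratios were 0.29 and 0.12, with a mean of 0.21, or 1.15-fold. Its normalised control signals were no lower than the lowest signal called well above background, so that level set no separate bound. Ifit3 had 196 and 150 in deficient samples, against 162 and 133 in control samples, with ratios of 0.19 and 0.11 that averaged 0.15 ± 0.07 (limma adjusted p = 0.257). Ifit1, a strongly induced member of the family, was well above background in no sample.

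The 2′-5′ oligoadenylate synthetases make the messenger that activates RNase L. Oas1a read 0.10 and 0.07, with 166 and 150 in deficient samples, against 151 and 143 in control samples. Oasl1, a related protein that restrains Irf7 translation in mice, read -0.02 and 0.11. Oasl2 read 0.11 and 0.36, with 198 and 84.6 in deficient samples, against 177 and 22.5 in control samples. The last of these control signals was not well above background, and the processed ratios of Oasl2 were 0.17 and 1.91. Oas2 and Oas3, with 2 probes each, were well above background in no sample of either genotype.

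**Figure D2:**
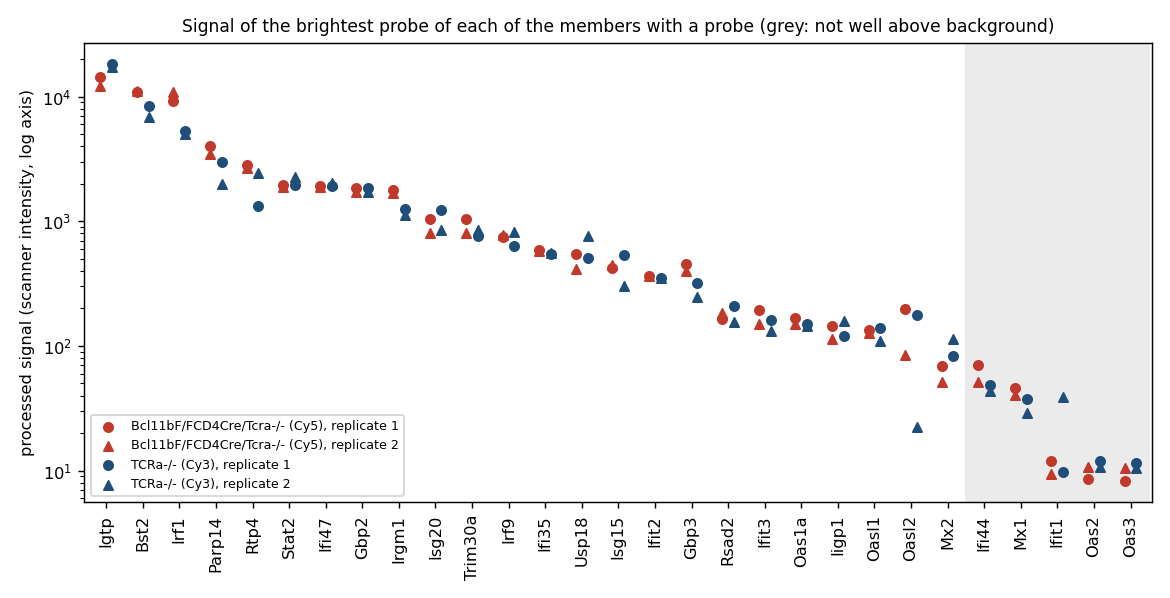
The plot of signals by gene shows on a log axis the processed signal, in scanner intensity, of the brightest probe of each of the 29 members with a probe, in the deficient samples (red) and the control samples (blue), circles for replicate 1 and triangles for replicate 2. The genes are ordered by signal for display only, and the 5 on grey (Ifi44, Mx1, Ifit1, Oas2 and Oas3) did not pass the filter on dim probes.

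The members below the filter are among the genes that interferon induces most, and their signals give no ratio that can be read. Ifi44 was well above background in the deficient sample of 1 array and in no control sample, by either of its probes. Of the 44 member probes, 30 were kept, or 68.2%, against 52.3% of all probes, and 27 were well above background in both channels on both arrays, or 61.4%, against 46.8% of all probes. By gene, 23 of the 24 tested members were well above background on both arrays in deficient samples and 23 in control samples. Over the 14920 genes tested, 14257 were so in deficient samples and 14085 in control samples.

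Isg15, a ubiquitin-like modifier, and Usp18, the protease that removes it and restrains the type I receptor, each read to opposite sides of 0 on the arrays. Isg15 had processed signals of 418 and 448 in deficient samples, against 535 and 302 in control samples, with ratios of -0.25 and 0.38. Its control samples lay on either side of its deficient samples. The array files place this Isg15 probe on chromosome 17 (mm8), whereas the RefSeq table has the gene on chromosome 4, and which locus the probe reads was not tested. Usp18 had 542 and 416 in deficient samples, against 503 and 763 in control samples, with ratios of 0.10 and -0.65.

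Among the other effectors, Bst2 and Parp14 were higher on both arrays. Bst2, or tetherin, holds budding virions at the cell surface and also marks plasmacytoid dendritic cells. It had 10830 and 11152 in deficient samples, against 8446 and 6889 in control samples, with no overlap and with ratios of 0.37 and 0.70 that averaged 0.54 ± 0.11 (limma adjusted p = 0.103). Siglech, a defining gene of plasmacytoid dendritic cells, did not pass the filter in either genotype, and of the 7 tested markers of these cells 3 read higher on both arrays, Bst2 among them, and 3 read lower. Their sum was 84260 and 75280 in deficient samples, against 92170 and 83850 in control samples. Most of it came from Ly6d, Ccr9 and Bst2. Ccr9, also listed as a marker of mature single positive cells, had 19098.3 and 9771.83 in deficient samples, against 36321.3 and 43388.6 in control samples. Ly6d went the other way, at 50467.5 and 50968.9 in deficient samples, against 43433.7 and 30261.8 in control samples. The samples are of DP thymocytes, and which cells gave the signals of Ly6d, Ccr9 and Bst2 was not tested. Whether the number of plasmacytoid dendritic cells differed was not tested either. Parp14, an ADP-ribosyltransferase, had 3980 and 3470 in deficient samples, against 2980 and 1993 in control samples. Its ratios were 0.35 and 0.76, averaging 0.56 ± 0.13 (limma adjusted p = 0.113), and another probe, 33.3 kb away on chromosome 16, read 0.32 and 0.59. Its remaining probe was well above background in no sample.

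The 250 bases before the start of Bst2 (RefSeq, GRCm38.p6, chr8:71537473-71537722, minus strand) are shown because both kinds of motif overlap there. Capitals mark 1 match of TTCNNNGAA and 2 of the response element core, each overlapping the next.
Bst2: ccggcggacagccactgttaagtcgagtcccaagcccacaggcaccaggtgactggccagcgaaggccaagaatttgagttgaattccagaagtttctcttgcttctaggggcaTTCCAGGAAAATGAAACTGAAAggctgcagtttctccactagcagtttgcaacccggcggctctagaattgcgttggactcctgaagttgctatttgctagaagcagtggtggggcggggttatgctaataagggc
Parp14 and Rtp4 are not in the promoter table.

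Rtp4, a zinc finger protein that restrains viral replication, had the second highest mean, with unequal ratios on the arrays. Its processed signals were 2825 and 2667 in deficient samples, against 1335 and 2424 in control samples, and its ratios were 0.99 and 0.15. The deficient samples were alike, and the control sample of replicate 1 was well below that of replicate 2. Without replicate 1 the ratio of Rtp4 is that of replicate 2 alone, 0.15. Trim30a, a tripartite motif protein that dampens innate signalling in mice, read 0.43 and -0.04 by the probe that represents it and 0.36 and 0.34 by another. Ifi35 read 0.09 and 0.05. Isg20, an exonuclease of single-stranded RNA, read -0.19 and -0.01, and -0.07 and -0.0013 by another probe, while its mean with median centring was 0.08. Rsad2, or viperin, which makes an antiviral nucleotide, read -0.20 and 0.17 with overlapping genotypes. Its 2 other probes were well above background in no sample.

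Several members read differently on the arrays, and the size of the gap was compared with no test. The median gap between the ratios of the 2 arrays was 0.24 over the members and 0.13 over all genes. Rtp4, Usp18 and Isg15 differed by over 0.5, which is 12.5% of the members, against 7.04% of all genes. By processed signals, 8 members had both deficient samples above both control samples and 3 had both below, or 33.3% and 12.5%, against 25.3% and 32.1% of all genes.

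**Figure D3:**
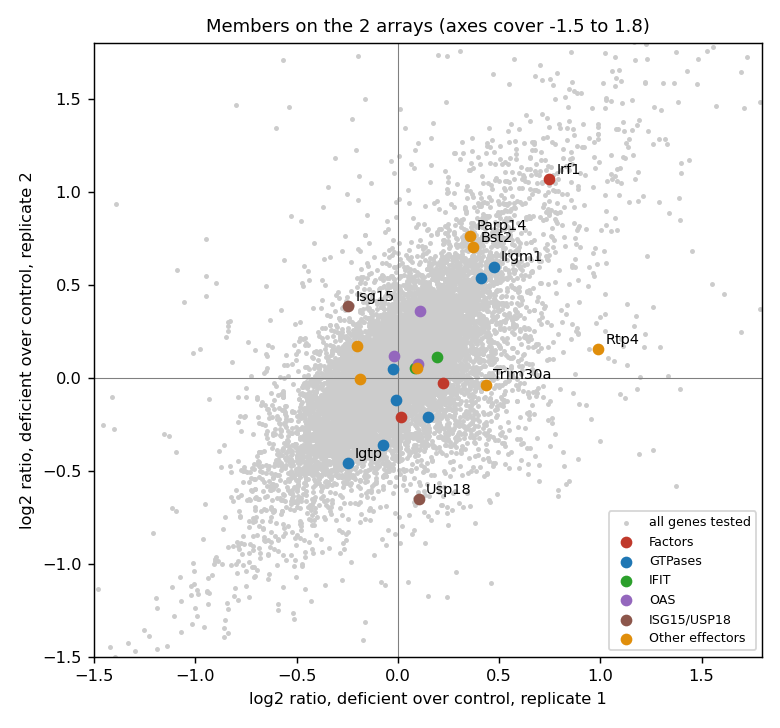
The scatter of the arrays against each other gives the log2 ratio of deficient over control on replicate 1 (horizontal) and replicate 2 (vertical), with all genes in grey and the 24 members in colour by family. The axes run from -1.5 to 1.8 and leave 111 of all genes outside. Irf1 lies at 0.75 and 1.07, while Rtp4 and Usp18 lie away from the diagonal.

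The genes that pass the interferon signal on were followed from lists of the pathway, chosen with earlier results of these data known. The interferon genes themselves were hardly detected: of 14 with a probe, only Ifna9 passed the filter, at 65.8 and 73.9 in deficient samples, against 48.0 and 68.4 in control samples. Ifnb1 and Ifng did not pass it. Of 6 receptor genes 5 were tested, and 2 read higher on both arrays and 2 read lower. Beside this and the lists below, 36.4% of all genes read higher on both arrays and 38.5% lower. Ifngr1, the ligand-binding chain for interferon gamma, had 51516 and 50898 in deficient samples, against 32788 and 21445 in control samples, without overlap. It read 1.03 and 1.49, with limma adjusted p = 0.0763, and 0.0245 in separate-channel limma. Its mean of 1.26 was 0.95 from the processed signals and 1.90 with median centring. Its partner chain Ifngr2 read -0.31 and -0.47, with 2943 and 2086 in deficient samples, against 3690 and 3033 in control samples. Il10rb, a shared chain of the interferon lambda receptor, read 0.28 and 0.82, and Ifnar1 read -0.21 and -0.14, with a mean of 0.07 under median centring.

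Both arrays read higher for 4 of 6 JAK-STAT genes and lower for 1. That one was Jak2, a kinase of the interferon gamma receptor, at -0.62 and -0.36 (limma adjusted p = 0.101; 0.0472 in separate-channel limma), whereas Tyk2, a kinase of the type I receptor, read 0.37 and 0.35. Stat4, a factor downstream of IL-12, read 0.26 and 0.40. Of 5 other IRF genes tested none was higher on both arrays, with Irf3, the factor downstream of nucleic acid sensors, at -0.33 and -0.34 (mean 0.15 with median centring). Their median was -0.07, and 0.12 with median centring. Irf7, which amplifies type I interferon and is itself induced by it, read -0.01 and 0.03.

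Of 11 genes that restrain the pathway, 6 read higher on both arrays and 3 read lower. Socs3, an inhibitor of cytokine receptors, was the lowest, with 5252 and 3532 in deficient samples, against 10435 and 7741 in control samples, and ratios of -1.01 and -1.11 (limma adjusted p = 0.0665; 0.0369 in separate-channel limma). Pias4, an inhibitor of STATs, read -0.39 and -0.28. Irf2bp2, a corepressor that binds Irf2, read 0.23 and 0.78, and Socs1, the main inhibitor of interferon gamma signalling, read 0.13 and 0.70. The processed signals of Socs1 overlapped, at 27837 and 30452 in deficient samples, against 31035 and 21878 in control samples.

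A longer list of other interferon-stimulated genes had a median of 0.19 over 55 tested genes. Of the 55, 35 read higher on both arrays and 6 read lower, against 5437 and 5740 of 14920 genes (36.4% and 38.5%). Limma called none of them. At an unadjusted p under 0.05 in limma, 23 of the 55 were higher and 1 lower, against 2251 and 2104 of 14920 genes (15.1% and 14.1%). Separate-channel limma called 7 of the 55 as higher and 1 as lower, against 710 and 572 of 14920 genes (4.76% and 3.83%). Median centring called 11 of the 55 as higher and none as lower, against 876 and 105 of 14920 genes (5.87% and 0.704%). The list median was then 0.40 where the median of all genes was 0.13. Shisa5, an endoplasmic reticulum protein, was the highest at 1.13 and 1.81, with 26965 and 24812 in deficient samples, against 13008 and 7092 in control samples. Ifi203, of the nucleic acid binding HIN200 family, read 0.65 and 1.38. Gbp4 was the lowest, at -0.43 and -0.70, followed by the nuclear body gene Sp100 at -0.66 and -0.14. The list was not compared with the members by any test.

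**Figure D4:**
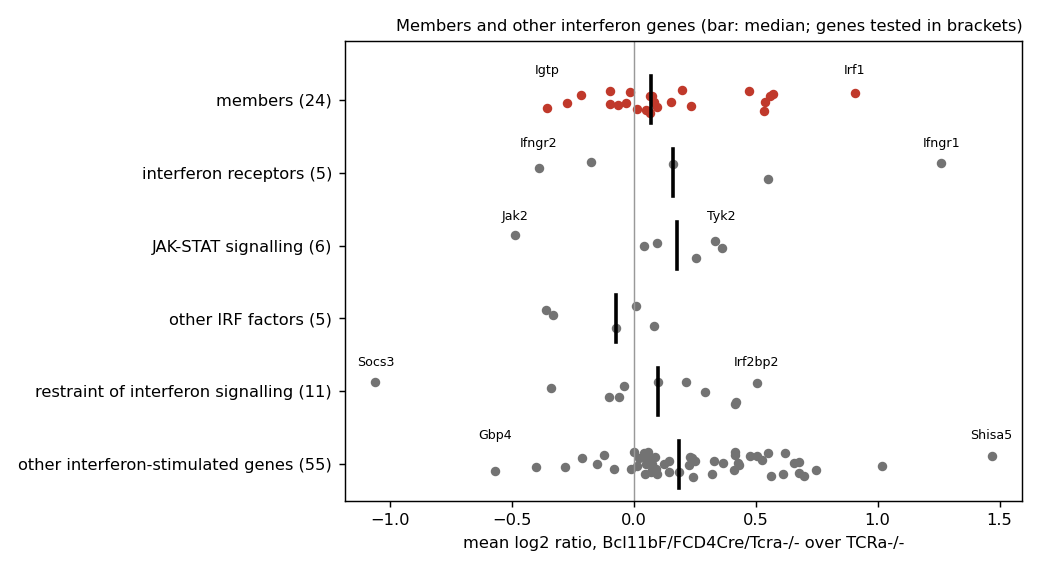
The plot of pathway lists places each tested gene by its mean log2 ratio of deficient over control, with the members (red, 24 genes) above the receptors (5), JAK-STAT genes (6), other IRF genes (5), restraining genes (11) and other interferon-stimulated genes (55), and a black bar at each median. The bars run from -0.07 for other IRF genes to 0.19 for other interferon-stimulated genes, and the names mark the lowest and highest gene of each list, except that no gene is named among the other IRF genes.

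Markers of other cell types also read away from 0, and their part in the ratios of the members was not tested. Over all genes, 36.4% read higher on both arrays and 38.5% lower. Of 10 tested macrophage or monocyte markers 7 read higher on both arrays and 2 read lower, with a median of 0.31. Their summed processed signal was 34650 and 33500 in deficient samples, against 30560 and 12350 in control samples. Most of that sum came from Lyz2, at 25054 and 28033 in deficient samples, against 23207 and 8756 in control samples. The Lyz2 ratios were 0.31 and 1.75. Adgre1 read 0.73 and 1.12, while the 2 lower were Itgam, at -0.18 and -0.23, and Cd14, at -0.24 and -0.04. Mertk did not pass the filter. Of 8 tested NK cell markers 5 read higher on both arrays and 1 read lower, and the sum was 10170 and 10360 in deficient samples, against 4910 and 4644 in control samples, while Ncr1 did not pass the filter. Of 10 tested markers of mature single positive cells, in which interferon targets are known to be higher, 5 read higher on both arrays and 5 read lower. Their sum was 100900 and 67450 in deficient samples, against 96630 and 93330 in control samples, and S1pr1 did not pass the filter. The sum of 6 tested B cell markers was 3934 and 2910 in deficient samples, against 6164 and 3705 in control samples, and 4 of them read lower on both arrays. For 9 stromal or endothelial markers it was 9475 and 3399 in deficient samples, against 9635 and 1958 in control samples, and 6 read higher on both arrays and 2 read lower. Of 2 tested gamma delta T cell markers, Cd163l1 read higher, at 1.36 and 1.59. Blk, also counted in the B cell list, read lower, at -0.17 and -0.23. Their sums were 3884 and 2565 in deficient samples, against 1476 and 879 in control samples. Nearly all of that was Cd163l1, at 3819 and 2508 in deficient samples, against 1380 and 784 in control samples.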

How the data were processed

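RNA of 2 samples per genotype was measured on 2 arrays, each with Cy5 for Bcl11bF/FCD4Cre/Tcra-/- and Cy3 for TCRa-/-. The authors scanned and read the arrays with Agilent Feature Extraction 9.5.3.1, per the submitters' processing notes and the file headers. The deposited mean and background signals are uncorrected intensity values, per the file headers. The processed signals are intensity values that Feature Extraction corrected for background and dye. The deposited log ratio is log10 of processed Cy5 over Cy3, and the value table of the series, whose scale and direction are unstated, differs from it by at most 0.005. Its median is 0 on each array.

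Here the mean signals were corrected with normexp (offset 50), normalised by loess, and fitted as log2 ratios with limma 3.58.1 in R 4.3.3 and statmod 1.5.0. The filter kept the 21538 of 41174 probes that passed the background flag in either genotype on both arrays, and each gene took its brightest kept probe. The mean of 2 ratios was tested against 0 with 1 residual degree of freedom, a prior of 2.5 and Benjamini-Hochberg adjustment over 14920 genes. An exact sign-flip test of 2 ratios cannot go below p = 0.5 (two-sided). For the second Ifit2 probe, each control signal was compared with the lowest control signal called well above background on that array. The higher one, its own signal on both arrays, was set against the deficient level. Probes were named through RefSeq accessions, symbols or synonyms. Motifs were searched in RefSeq promoters of GRCm38.p6. No annotation of mm8 was used here, so the exon of a probe is not given.

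All 30 members are named. Of each pathway list the text names the 2 highest and 2 lowest genes with the same sign on both arrays and any gene called, apart from genes not reported here. Irf7, Ifnb1 and Ifng, which are outside that rule, were chosen after their values were seen. The members and lists were chosen with earlier results of these data known. Alternatives covered the background correction, normalisation, centring, channels, probe filter, probe choice, value table and each array alone. Whether the samples of a genotype came from separate mice beyond the label of biological replicates is not stated.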

Additional observations from a re-analysis of the deposited data

How the results depend on the processing

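The count of members called was 0 in the loess fit, 3 in separate-channel limma and 2 with median centring, all higher, and 0 in the other 7 tested alternatives, where limma called 0 to 132 of all genes. At an unadjusted p under 0.05 the loess fit had 6 members. Median centring gave 3 members at least 1.5-fold higher on both arrays. That share over all genes was not counted in this setting, so the count cannot be read as particular to the members. Higher on both arrays were 18 members, or 75%, and lower 1, or 4.17%, against 55% and 23.5% of all genes. The member median was then 0.17 where the median of all genes was 0.13. Irf1 was the one member past 1.5-fold in the loess fit, and the mean of its kept probes left 0. The member median ranged from 0.062 without replicate 1 to 0.10 without replicate 2. With 1 array left, counts over both arrays and tests could not be had. Signs turned under median centring for Isg20 (0.083), Stat2 (0.14), Rsad2 (0.029), Ifi47 (0.15) and Igtp (0.17), and with running-median centring for Gbp2 (-0.00094). Leaving out either array, single-array ratios ran from -0.25 to 0.38 for Isg15, -0.017 to 0.11 for Oasl1, -0.029 to 0.22 for Irf9, -0.21 to 0.015 for Stat2, -0.65 to 0.10 for Usp18, -0.20 to 0.17 for Rsad2, -0.21 to 0.15 for Iigp1, -0.026 to 0.049 for Gbp2 and -0.037 to 0.43 for Trim30a. The cause was not tested. Of 214 gene ratios under alternatives with a test, 203 kept their direction and their side of the threshold, and of 48 single-array ratios, which have no test, 39 kept their direction. The within-array ratio already pairs the samples of an array, and separate-channel limma blocks on the array, so no further replicate block was fitted. Dim signals limit Ifi44, Mx1, Ifit1, Oas2 and Oas3. Both channels passed for 22 of the 24 tested members, against 13402 of 14920 genes.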
